A study of Mus musculus with 18 samples.

Results

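Cyclins are the regulatory subunits whose rise and fall drives the cyclin-dependent kinases (CDKs) through the cell cycle, and 8 of their genes were followed through polysome gradients of mouse embryonic stem cells (ESCs). The members were chosen by name as the classical cell cycle cyclins: the D-type genes Ccnd1, Ccnd2 and Ccnd3, the E-type genes Ccne1 and Ccne2, the A-type gene Ccna2 and the B-type genes Ccnb1 and Ccnb2. All 8 were found among the 51467 genes of the count table, and 7 of them were among the 12705 genes that passed the filter on low counts (3 CPM or more in 3 or more libraries, where CPM is the count of a gene relative to its library total). Ccnd2 did not pass and is described by its counts. The filter used plain library totals, and the CPM levels printed below use totals scaled by TMM.

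The cells were V6.5 ESCs, an established mouse line, either wild-type (WT) or carrying a CRISPR-Cas9 knockout of Ddx6 (Ddx6 KO), all kept in medium with serum, LIF and 2i. The DDX6 protein, an RNA helicase, takes part in the repression and the decay of mRNAs. All cells were treated with cycloheximide before lysis, which holds ribosomes on the mRNA, and the lysates were separated on sucrose gradients into a monosome, a low polysome (2 to 4 ribosomes) and a high polysome fraction (4 or more). Each genotype had 3 gradients, so there were 6 groups of 3 and 18 libraries in all. Clone 1 supplied KO gradient 1 and clone 2 supplied KO gradients 2 and 3, so the KO group stands for 2 clones. Libraries held 2543617 to 11474550 gene counts, and the 3 shallowest were those of the WT monosome, with at most 4894677. Ddx6 itself lay between 9.68 and 82.7 CPM in the 9 KO libraries and between 143 and 212 CPM in the 9 WT libraries, with the highest KO value of each fraction in clone 1. All 8 ESC marker genes checked passed the filter and summed to between 2303 and 5537 CPM per library. In monosomes these sums were 2543 to 2589 CPM in WT and 2856 to 3456 CPM in KO. In high polysomes they were 4448 to 5537 CPM in WT and 3321 to 4113 CPM in KO. The low polysome sums overlapped, at 2303 to 3409 CPM in WT and 2432 to 3373 CPM in KO. Of 6 fibroblast or feeder markers 2 passed, with sums between 3.95 and 11 CPM, and Col3a1 was at 0 in every library. Of 6 primitive endoderm markers 1 passed, and the sums were 4.18 to 11.1 CPM in WT and 7.44 to 26.6 CPM in KO libraries, highest in the KO high polysome (17.2 to 26.6 CPM). The highest value of Dab2 was 5.45 CPM in WT and 16.8 CPM in KO libraries. Those of Gata6 and Pdgfra were also higher in KO, and those of Gata4, Sox17 and Sox7 were higher in WT.

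D-type cyclins bind CDK4 and CDK6 and begin the phosphorylation of the retinoblastoma protein family, which releases E2F transcription factors. E-type cyclins with CDK2 then drive entry into S phase, cyclin A2 acts in S phase and G2 with CDK2 and CDK1, and the B-type cyclins with CDK1 drive mitosis. ESCs are known for a short G1 phase and for high cyclin E activity through the cycle. They are also known for the ESCC miRNAs, an abundant family of miRNAs named for its role in the ESC cell cycle and defined by a shared seed, and miRNAs of the miR-16 family are known to target D-type and E-type cyclins. In bulk fractions, fewer cells of one cell cycle phase and less RNA per cell cannot be told apart.

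The miRNA sequences are shown because the study set DDX6 beside miRNA-mediated repression. In the RefSeq mature miRNAs below (GRCm38.p6), the capitals mark the seed, bases 2 to 8.
miR-294-3p: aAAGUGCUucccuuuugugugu
miR-302b-3p: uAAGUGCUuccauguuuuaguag
miR-16-5p: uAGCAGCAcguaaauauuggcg
The first and second share the ESCC seed AAGUGCU, whose 7-base target on the mRNA strand is AGCACTT, and the target of the miR-16 seed is TGCTGCT. Each gene was searched in the 3′ UTR of a single annotated transcript, that with the longest coding sequence. These 3′ UTRs were 2676 nt long in Ccnd1, 5173 nt in Ccnd2 and 227 to 1584 nt in the other cyclins. An ESCC 7mer stood in 2 of the 8 cyclins, Ccnd1 and Ccnd2, with 1 site each. A miR-16 site (the 7mer, or its last 6 bases followed by A) stood in Ccnd1, Ccnd2, Ccnd3 and Ccne1. Of 20654 genes with a 3′ UTR, 16.06% held an ESCC site and 21.27% a miR-16 site of these kinds. For let-7, whose 7-base target is CTACCTC, Ccnd1 held 1 site and Ccnd2 held 3, all of the kind with the last 6 bases followed by A, and 13.33% of genes held a let-7 site of either kind. No site of these 3 families was found in the searched 3′ UTRs of Ccna2, Ccnb1, Ccnb2 or Ccne2. Sites and shares were not adjusted for 3′ UTR length. In the windows below the capitals mark the match.
Ccnd1, ESCC site at chr7:144931677-144931683 (GRCm38, minus strand): ttccatttcaaAGCACTTttggtcagcta
Ccnd2, ESCC site at chr6:127129341-127129347 (minus strand): tccattagaaaAGCACTTtgaaaattttg
Ccne1, miR-16 site at chr7:38098023-38098030 (minus strand): tattttgtaagTGCTGCTAtgtctatcaat
Ccnd2, miR-16 site at chr6:127128541-127128548 (minus strand): gtttcacggtgTGCTGCTAttttagaaaca
These matches are descriptions of the sequence, and binding at them was not measured.

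In WT ESCs the D-type mRNA pool was almost wholly Ccnd3 and Ccnd1, and the E-type pool was mostly Ccne1. The mean Ccne1 share of E-type counts was 90.3% in monosomes, 96.2% in low polysomes and 97.6% in high polysomes. Each library counts 3′ end tags, 1 per transcript read, so CPM values of different genes were compared without a length correction. Every CPM is relative to the TMM-scaled total of its own library, so it describes a level within a fraction and is not an exact share of its tags. Ccnd3 was the most abundant cyclin in every WT fraction, at 573 ± 56.2 CPM in high polysomes, 626 ± 40.5 CPM in low polysomes and 827 ± 76.8 CPM in monosomes (mean ± SD over n = 3 gradients, here and below). Its WT libraries lay above those of every other cyclin in all 3 fractions. In the WT high polysome Ccne1 followed at 307 ± 12.1 CPM, then Ccnb2 at 284 ± 22.9, Ccna2 at 280.2 ± 57.4, Ccnd1 at 233 ± 9.78 and Ccnb1 at 202 ± 8.43 CPM. Neighbours from Ccne1 down to Ccnd1 in this order overlapped in range, and Ccnd1 and Ccnb1 did not. Ccne2 was at 7.39 ± 1.39 CPM and Ccnd2 at 2.03 ± 0.61 CPM, below all others. In the WT monosome the order was different, with Ccnb1 second at 172 ± 12.1 CPM and Ccna2 sixth at 95.7 ± 9.69 CPM.

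**Figure D1:**
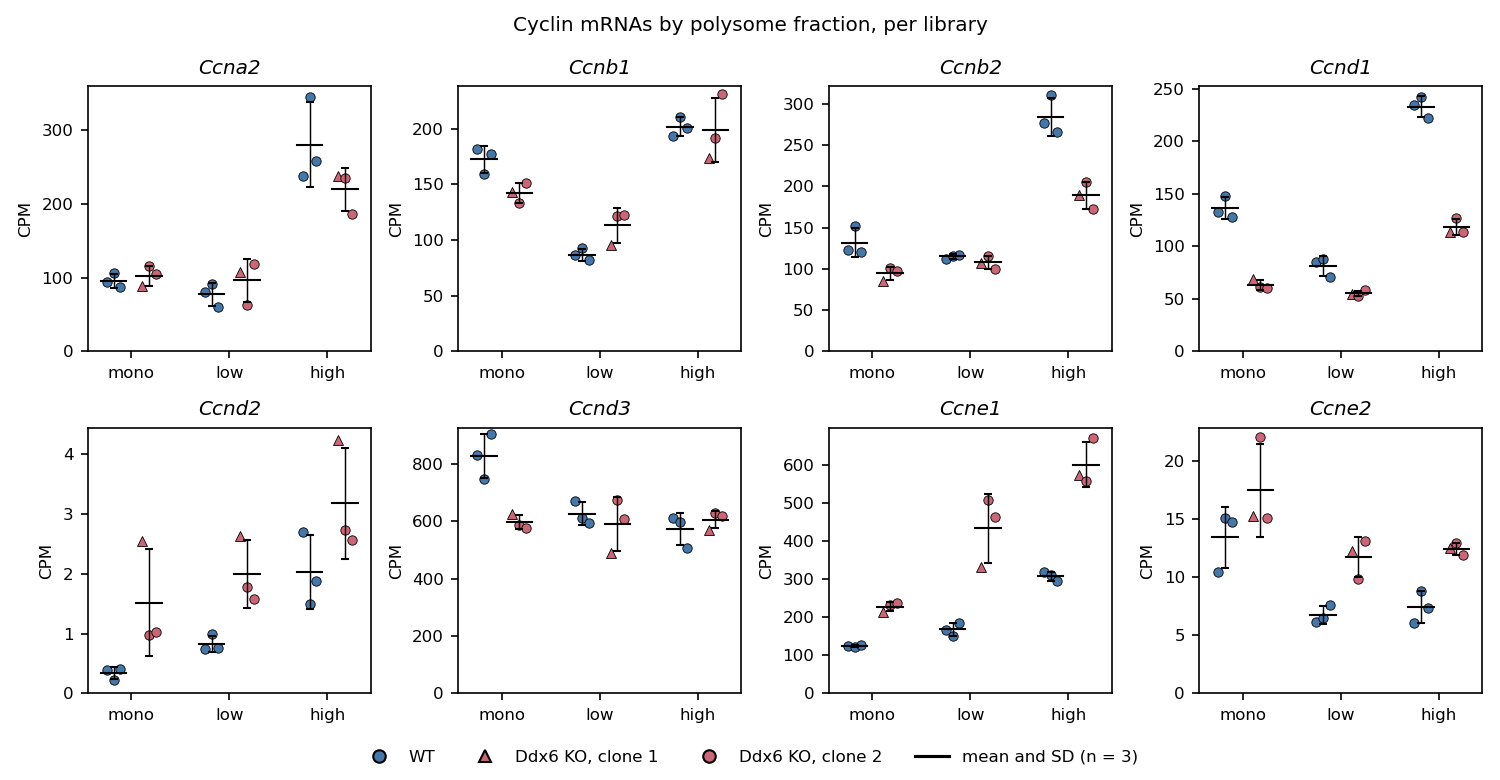
CPM (linear axis from 0, scaled by TMM) of each cyclin in the monosome (mono), low polysome and high polysome of 3 WT and 3 Ddx6 KO gradients, with a point per library, a line at the mean and bars of 1 SD. Ccnd1 in KO sits below WT and Ccne1 above WT in all 3 fractions, and Ccnd2 stays under 5 CPM everywhere.

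The cyclins differed in the ratio of their high polysome and monosome levels in WT cells. Translation level is taken here as the log2 ratio of high polysome to monosome CPM. Of the 7 cyclins tested, 4 had a higher CPM in high polysomes than in monosomes and 2 had a lower one (limma with voom, Benjamini-Hochberg adjusted p under 0.05 over 12705 genes), where 28.9% of all genes were called higher and 32.2% lower. Ccna2 had the highest tested value, 1.53 (SE 0.21, adjusted p = 2.43e-06), with 1.33, 1.70 and 1.56 in gradients 1 to 3. Ccne1 followed at 1.30 (SE 0.14, adjusted p = 1.02e-07), Ccnb2 at 1.11 (SE 0.121, adjusted p = 1.1e-07) and Ccnd1 at 0.77 (SE 0.113, adjusted p = 6.26e-06). Both partners of a family could thus stand apart: Ccnb1, the other mitotic B-type cyclin, was at 0.23 (SE 0.127, adjusted p = 0.122), and its 3 gradients lay below those of Ccnb2. Ccnd3 was lower in the high polysome, at -0.53 (SE 0.123, adjusted p = 0.000839). Ccne2 was lower too, at -0.89 (SE 0.228, adjusted p = 0.00207). In the order of WT translation levels, Ccna2 and Ccne1 overlapped in range, as did Ccnd3 and Ccne2, and the other neighbours among the tested cyclins did not. The CPM of Ccnb1 and Ccnd1 was lower in the low polysome than in the monosome in every WT gradient (log2 low polysome over monosome -1.11 to -0.78 and -0.86 to -0.64), and that of Ccne1 was higher (0.32 to 0.55).

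Next, KO was compared with WT. Over the mean of the 3 fractions, Ccne1 and Ccne2 were higher in Ddx6 KO, and Ccnd1 and Ccnb2 were lower. These were 2 of 7 cyclins called higher, where 30.6% of all genes were, and 2 of 7 called lower, where 31.5% were. The median log2 change of the 7 was 0.02 and that of all genes tested was -0.0213, so the cyclins as a list did not move one way. The mean over fractions gives each fraction equal weight and is not the total mRNA level of the cell.

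Ccnd1 (ENSMUSG00000070348.5, chr7:144929931-144939925, minus strand) fell most among the 7 tested cyclins. In the monosome its WT libraries held 133, 148 and 128 CPM and its KO libraries 68.8, 61.4 and 60.2 CPM. In the low polysome the values were 85.4, 87.9 and 70.8 CPM in WT and 54.9, 52.9 and 58.0 CPM in KO. In the high polysome they were 235, 242 and 222 CPM in WT and 114, 127 and 114 CPM in KO. Every KO library of either clone was below every WT library of the same fraction. The KO level was 0.544 of WT over the mean of the fractions, a log2 change of -0.88 (SE 0.0663, limma adjusted p = 4.98e-10). By fraction, monosomes gave -1.11 (SE 0.118, adjusted p = 4.63e-07), low polysomes -0.55 (SE 0.117, adjusted p = 0.000659) and high polysomes -0.98 (SE 0.11, adjusted p = 6.28e-07). Under 13 alternative settings the mean change stayed between -0.94 and -0.83.

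Ccnd3 (ENSMUSG00000034165.16, chr17:47505051-47599691, plus strand), the main D-type cyclin of these cells, was lower in the KO monosome and not called elsewhere. Monosome values were 829.9, 749 and 903 CPM in WT and 624, 587 and 578 CPM in KO, with no overlap. The log2 change there was -0.47 (SE 0.123, adjusted p = 0.00485). In the high polysome WT libraries held 613, 597 and 508 CPM and KO libraries 571, 628 and 619 CPM, which overlap (log2 change 0.09, SE 0.122, adjusted p = 0.585). Over the mean of the fractions the change was -0.16 (SE 0.0706, adjusted p = 0.0551). It passed the threshold under 4 of 13 alternatives, among them DESeq2 (-0.19, adjusted p = 0.0157) and the fit without KO gradient 2 (-0.20, adjusted p = 0.0389).

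Ccnd2 (ENSMUSG00000000184.12, chr6:127125162-127152193, minus strand) was close to the limit of detection. Its counts in WT libraries were 1, 1 and 2 in monosomes, 6, 7 and 6 in low polysomes and 21, 15 and 20 in high polysomes. In KO libraries they were 20, 8 and 8, then 20, 13 and 18, then 38, 25 and 25. The KO libraries were above the WT libraries in the monosome and low polysome and overlapped them in the high polysome, and the highest KO value in each fraction was that of clone 1. Relative to the total counts, the summed KO libraries held 4.59 times the WT level in monosomes (95% exact interval 1.65 to 17.8), 2.36 times in low polysomes (1.37 to 4.23) and 1.53 times in high polysomes (1.08 to 2.18). These intervals cover counting error only, and the WT monosome value rests on 4 counts. Without the filter limma gave a log2 change of 1.17 over the mean of the fractions (SE 0.264, adjusted p = 0.00113) and 1.66 in monosomes (SE 0.559, adjusted p = 0.033). Its values of 1.20 in low polysomes (adjusted p = 0.0569) and 0.64 in high polysomes (adjusted p = 0.205) were not called.

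The make-up of the D-type pool differed between the genotypes. Ccnd1 held 28.9% ± 1.4 of the D-type tags in the WT high polysome and 16.3% ± 0.7 in the KO high polysome. Its monosome share was 14.3% ± 2.04 in WT and 9.58% ± 0.261 in KO, and its low polysome share ranged from 10.6% to 12.5% in WT and from 7.27% to 10.1% in KO. The shares did not overlap between genotypes in any fraction. Ccnd3 held 70.8% ± 1.32 of D-type tags in the WT high polysome and 83.3% ± 0.723 in the KO. Ccnd2 stayed under 1% of the pool, with 0.614% as its highest share in any library. These shares restate the levels above and were not tested.

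**Figure D2:**
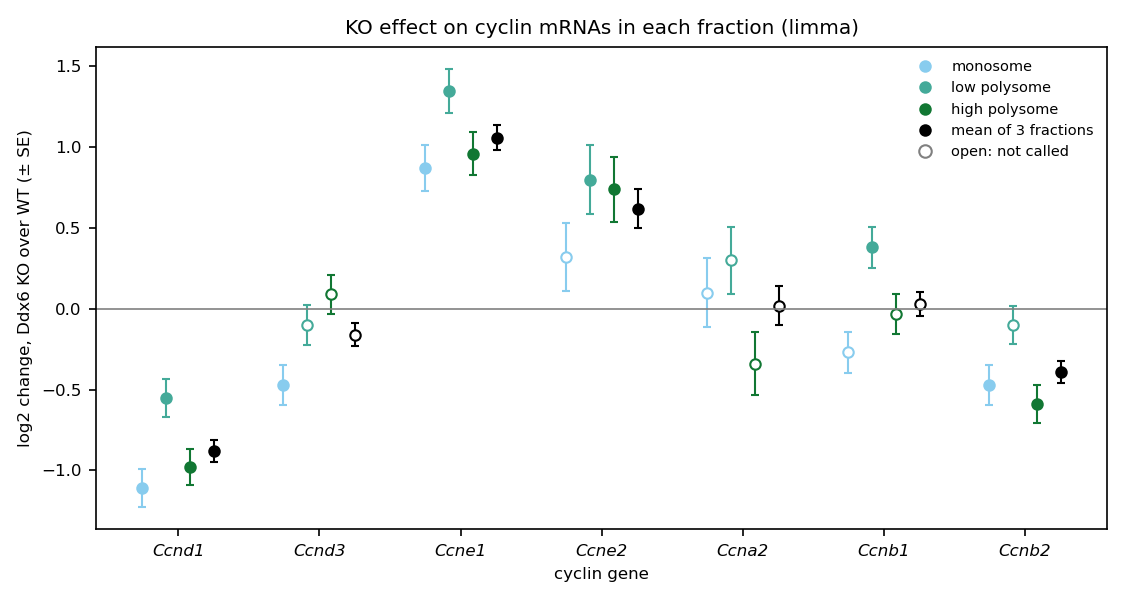
Log2 change (limma, y axis, with bars of 1 SE) of 7 cyclins in Ddx6 KO against WT in each fraction and over the mean of the 3 fractions, with filled points for an adjusted p under 0.05. Ccnd1 lies below 0 and Ccne1 above 0 in all fractions, and Ccnb1 is called only in the low polysome.

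Ccne1 (ENSMUSG00000002068.16, chr7:38097984-38107534, minus strand) had the highest called rise among the 7 tested cyclins over the mean of the fractions, while the sparse Ccnd2, which did not pass the filter, had a higher value without it. In the monosome WT libraries held 125, 121 and 127 CPM and KO libraries 214, 232 and 237 CPM. In the low polysome the values were 167, 151 and 186 CPM in WT and 333, 507 and 462 CPM in KO, with clone 1 the lowest of the KO libraries. In the high polysome they were 318, 310 and 294 CPM in WT and 574, 559 and 669.5 CPM in KO. The groups did not overlap in any fraction, and KO exceeded WT in both clones. The KO level was 2.09 times WT over the mean of the fractions, a log2 change of 1.06 (SE 0.0786, adjusted p = 3.67e-10). By fraction, monosomes gave 0.87 (SE 0.141, adjusted p = 6.75e-05), low polysomes 1.35 (SE 0.135, adjusted p = 1.27e-07) and high polysomes 0.96 (SE 0.133, adjusted p = 7.25e-06). Under 13 alternatives the mean change lay between 0.99 and 1.15.

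Ccne2 (ENSMUSG00000028212.16, chr4:11191351-11204779, plus strand), the second E-type cyclin, rose as well but from a far lower level. WT low polysome libraries held 6.13, 6.48 and 7.61 CPM and KO libraries 12.2, 9.82 and 13.1 CPM. High polysome values were 6.03, 8.80 and 7.35 CPM in WT and 12.5, 12.9 and 11.9 CPM in KO. In the monosome the groups nearly met, at 10.4, 15.1 and 14.7 CPM in WT and 15.2, 22 and 15.1 CPM in KO. The log2 change over the mean of the fractions was 0.62 (SE 0.12, adjusted p = 0.000141). Low polysomes gave 0.80 (SE 0.216, adjusted p = 0.00441), high polysomes 0.74 (SE 0.2, adjusted p = 0.00466) and monosomes 0.32 (SE 0.21, adjusted p = 0.234). With all libraries thinned to 2543617 counts, neither polysome change was called (0.70, adjusted p = 0.0627, and 0.44, adjusted p = 0.292), while the mean change was called under all 13 alternatives. Ccne2 held 2.35% ± 0.456 of E-type tags in the WT high polysome and 2.04% ± 0.271 in the KO, which overlap.

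The opposite moves of Ccne1 and Ccnd1 changed the ratio of their mRNAs. Ccne1 tags were 0.818 to 0.987 of Ccnd1 tags in WT monosome libraries and 3.11 to 3.95 times Ccnd1 tags in KO monosome libraries. In the low polysome the ratio was 1.72 to 2.63 in WT and 6.07 to 9.58 in KO. In the high polysome it was 1.28 to 1.35 in WT and 4.39 to 5.86 in KO. In the KO low polysome and the KO high polysome the ranges of Ccne1 and Ccnd3 overlapped, so that no single cyclin stood above all others there. In the KO monosome Ccnd3 stayed above Ccne1 with no overlap. The pair of Ccne1 and Ccnd1 was set side by side after the values were seen.

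Of the cyclins of S phase and mitosis, Ccnb2 was called over the mean of the fractions and Ccna2 and Ccnb1 were not. Ccna2 (ENSMUSG00000027715.9, chr3:36564865-36572150, minus strand) had a log2 change of 0.02 over the mean of the fractions (SE 0.119, adjusted p = 0.901). A 95% interval of its KO level is 0.862 to 1.19 times WT. Its libraries were spread widely, for example 107, 63.4 and 118 CPM in the KO low polysome and 237, 345 and 258 CPM in the WT high polysome. No fraction gave a call. Ccnb1 (ENSMUSG00000041431.16, chr13:100778650-100786570, minus strand) had a mean change of 0.03 (SE 0.073, adjusted p = 0.779), with an interval of 0.921 to 1.12 times WT.

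Ccnb1 differed between fractions. It was higher in the KO low polysome, with 86.3, 92.5 and 81.7 CPM in WT and 95.4, 122 and 123 CPM in KO (log2 change 0.38, SE 0.128, adjusted p = 0.0189). In the monosome it was at 182, 159 and 177 CPM in WT and 143, 133 and 151 CPM in KO, with no overlap and no call (-0.27, SE 0.128, adjusted p = 0.0953). The low polysome call was lost under 6 of 14 alternatives, including each of the fits without WT gradient 1 (0.38, adjusted p = 0.0516), WT gradient 3 (0.34, adjusted p = 0.083), KO gradient 2 (0.33, adjusted p = 0.0848) and KO gradient 3 (0.28, adjusted p = 0.124).

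Ccnb2 (ENSMUSG00000032218.7, chr9:70407692-70421547, minus strand) was lower in KO in the monosome and the high polysome. Its high polysome values were 277, 310.2 and 266 CPM in WT and 189, 205 and 173 CPM in KO, with no overlap. In the monosome they were 123, 152 and 119.8 CPM in WT and 85.5, 101 and 97.2 CPM in KO. The KO low polysome overlapped WT, at 107, 116 and 100.1 CPM against 112, 116 and 117 CPM. The log2 change was -0.39 over the mean of the fractions (SE 0.0691, adjusted p = 5.78e-05). Monosomes gave -0.47 (SE 0.123, adjusted p = 0.00454), high polysomes -0.59 (SE 0.116, adjusted p = 0.000341) and low polysomes -0.10 (SE 0.119, adjusted p = 0.508). The monosome call was lost without WT gradient 2 (-0.36, adjusted p = 0.0562). Ccnb1 thus held 41.5% ± 1.23 of the B-type tags of the WT high polysome and 51.1% ± 5.17 of those of the KO high polysome. Its low polysome share was 41.0% to 44.3% in WT and 47.2% to 55.2% in KO. In the monosome its share overlapped, at 51.2% to 59.7% in WT and 56.9% to 62.6% in KO.

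Within single fractions, the monosome had 1 of 7 cyclins higher (18.6% of all genes) and 3 lower (20.1%). The low polysome had 3 higher (23.4%) and 1 lower (24.3%), and the high polysome had 2 higher (25.3%) and 2 lower (21.1%). The 3 comparisons use different libraries, but these come from the same gradients and a single fit, so they are not independent.

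The study asked whether loss of DDX6 changes translation level, so the KO effect on high polysome over monosome was tested for each cyclin as an interaction term. Only Ccnd3 was called, 1 of 7 higher and 0 of 7 lower, where 10.7% of all genes were called higher and 7.09% lower. At an unadjusted p under 0.05 the count was also 1, where the share of all genes was 32.9%. Ccnd3 rose from -0.44, -0.33 and -0.83 in the WT gradients to -0.13, 0.10 and 0.10 in the KO gradients, with no overlap. The difference was 0.55 (SE 0.173, adjusted p = 0.032). The monosome level of Ccnd3 was lower in KO, while its high polysome level was not called. The call was lost without WT gradient 1, 2 or 3 (0.52, 0.66 and 0.41) and without KO gradient 2 or 3 (0.52 and 0.50), with adjusted p between 0.0588 and 0.166. Library size alone gave 0.43 (adjusted p = 0.0507) and no filter 0.45 (adjusted p = 0.0798). Every such ratio uses the shallow WT monosome libraries, and at equal depth the value was 0.57 (adjusted p = 0.0301). With the trend of all genes on coding length removed it was 0.86 (adjusted p = 0.00522).

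The cyclins with the largest changes in level had no called change in translation level. Ccnd1 was at 0.82, 0.71 and 0.79 in WT and 0.73, 1.05 and 0.92 in KO, a difference of 0.13 (SE 0.161, adjusted p = 0.604). The 95% interval of this difference spans 0.88 to 1.36 times WT. Ccne1 was at 1.34, 1.35 and 1.21 in WT and 1.42, 1.27 and 1.49 in KO, a difference of 0.09 (SE 0.194, adjusted p = 0.772), with an interval of 0.821 to 1.39 times WT. Ccnb2 differed by -0.11 (SE 0.169, adjusted p = 0.678), Ccnb1 by 0.25 (SE 0.178, adjusted p = 0.353) and Ccne2 by 0.42 (SE 0.29, adjusted p = 0.328). Ccna2 had the lowest value, -0.44 (SE 0.29, adjusted p = 0.302), and its gradients overlapped at 1.33 to 1.70 in WT and 0.82 to 1.42 in KO. The order of the cyclins in KO was much as in WT, with Ccne1, Ccna2 and Ccnb2 highest among those tested and Ccnd3 and Ccne2 lowest.

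**Figure D3:**
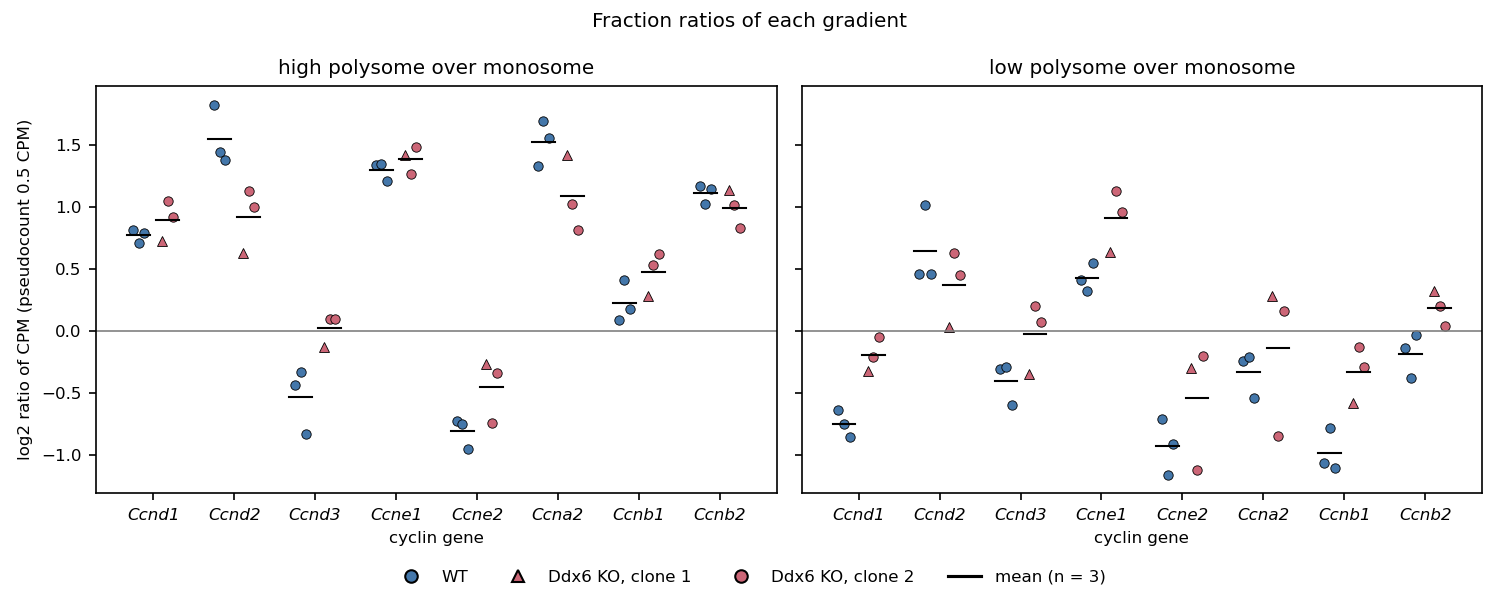
Log2 ratio of high polysome to monosome CPM (left) and of low polysome to monosome CPM (right) for each cyclin, with a point per gradient and a line at the mean of 3 gradients (pseudocount 0.5 CPM). On the left only Ccnd3 and the sparse Ccnd2 have WT and KO gradients that do not overlap. The WT monosome values of Ccnd2 lie below the pseudocount. Without the filter limma gave Ccnd2 a KO effect of -1.02 (SE 0.654, adjusted p = 0.327), which was not called. On the right Ccnd1, Ccne1, Ccnb1 and Ccnb2 have KO gradients above all WT gradients, and of these only Ccnb1 was called. The share of all genes that separate in this way was not counted.

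In the low polysome over monosome ratio, all 7 tested cyclins had a positive KO effect, between 0.20 and 0.65 with a median of 0.48, while the median of all genes was 0.0177 and 51.5% of them were positive. Of the 7, 5 had an unadjusted p under 0.05, where 10.6% of all genes had one with a positive effect. After adjustment 1 was called higher, where 2.31% of all genes were called higher and 2.39% lower. The called gene was Ccnb1, which moved from -1.07, -0.78 and -1.11 in WT to -0.58, -0.13 and -0.29 in KO (0.65, SE 0.181, adjusted p = 0.0431). Ccnd1 was next, at -0.64, -0.75 and -0.86 in WT and -0.32, -0.21 and -0.05 in KO (0.56, SE 0.166, adjusted p = 0.0553). With the gradient as a block for the fractions of one lysate, both were called (Ccnd1 adjusted p = 0.044). The Ccnb1 call was lost under 10 of 15 alternatives, among them the equal depth (0.59, adjusted p = 0.101) and each fit without a WT gradient (0.61, 0.76 and 0.59 without WT gradients 1, 2 and 3) or without KO gradient 2 or 3 (0.55 and 0.60). All 7 values use the same WT monosome libraries, so they are not independent of each other.

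The cyclins act through kinases and are held in check by inhibitors and by proteolysis, and 75 genes of these groups in 5 lists were examined in the same fit. Of these 74 passed the filter, among them Ccna1 and Ccno, which passed through the libraries of 1 genotype alone and are given by their levels with no test. Of the other 72, 18 were higher and 29 lower in KO over the mean of the fractions, beside 30.6% and 31.5% of all genes. Among 9 genes of the CDK list, which holds the cyclin-dependent kinases, the CDK-activating complex and the CKS proteins, 1 was higher and 4 were lower. Cdk6, a partner of the D-type cyclins, was the one that rose, with 20.9 ± 3.32 CPM in WT and 45.3 ± 5.35 CPM in KO monosomes (log2 change of the mean 1.38, SE 0.08, adjusted p = 9.58e-12). Of 12 activators and inhibitors of CDKs, 8 were higher and 1 was lower. They included Cdkn1b, which encodes the CDK inhibitor p27 and went from 71.0 ± 2.49 to 146 ± 3.53 CPM in the high polysome (1.13 over the mean, SE 0.0678, adjusted p = 1.58e-11). Cdkn1c, which encodes the inhibitor p57, rose by 2.07 (SE 0.716, adjusted p = 0.0166), and 1 clone carried most of this: its KO high polysome values were 79.7 CPM in clone 1 and 10.5 and 7.37 CPM in clone 2, against 4.49 to 6.0 CPM in WT. Its call was lost without any one of the WT gradients, and the change was 1.20 without KO gradient 1.

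Over the mean of the fractions 30.6% of all genes were higher and 31.5% lower, and the counts below stand beside these shares. Of 11 genes of the RB and E2F list, 1 was higher and 6 were lower. Of 26 genes of cyclin turnover (SCF and anaphase-promoting complex subunits and their partners), 5 were higher and 12 were lower. Anapc13, a small subunit of the anaphase-promoting complex, which marks the mitotic cyclins for destruction, fell by 1.17 (SE 0.0664, adjusted p = 7.18e-12), and its low polysome level was 244 ± 15.8 CPM in WT and 80.4 ± 6.18 CPM in KO. Of 14 other cyclins tested without Ccna1 and Ccno, 3 were higher and 6 lower. Ccna1, the germ-line A-type cyclin, was at 1.04 ± 0.246 CPM in WT and 3.30 ± 0.521 CPM in KO high polysomes. Ccno, a cyclin known from multiciliated cells, was at 10.7 ± 4.24 CPM in WT and 1.62 ± 0.432 CPM in KO high polysomes.

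Within single fractions the leading genes of these lists mostly recurred. In the monosome Cdk6 (1.15) was followed by Cdc25b, a phosphatase that activates CDK1 (1.07, adjusted p = 3.15e-05), the transcription factor E2f2 (-1.04, adjusted p = 3.25e-05) and Ccnjl (0.96, adjusted p = 0.0159). In the low polysome Anapc13 (-1.61), Cdkn1b (1.60) and Cdk6 (1.44) led, with Ube2s (-1.19, adjusted p = 0.00169). In the high polysome the leaders were Cdk6 (1.57) and Ube2s (-1.37), followed by the RB family member Rbl2 (1.24, adjusted p = 3.08e-05) and Ube2c (-1.07, adjusted p = 9.5e-07). Ube2s and Ube2c are the ubiquitin-conjugating enzymes of the anaphase-promoting complex. Of the 72, monosomes had 11 higher and 15 lower (18.6% and 20.1% of all genes), low polysomes 16 and 23 (23.4% and 24.3%), and high polysomes 18 and 24 (25.3% and 21.1%).

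In translation level, 14 of these 72 genes were raised and 13 were lowered in KO, where 10.7% and 7.09% of all genes were. Rbl2, which encodes the pocket protein p130, had the largest value, 1.63 (SE 0.295, adjusted p = 0.00136), with high polysome levels of 5.96 ± 0.268 CPM in WT and 14.2 ± 0.234 CPM in KO. Its call was lost at equal depth (adjusted p = 0.0751). Anapc2 (1.34, adjusted p = 0.00379) and Ccnt1, the cyclin of the elongation factor P-TEFb (1.22, adjusted p = 0.00021), rose too. Cks2 (-1.10, adjusted p = 0.0262), Cdkn2a (-1.09, adjusted p = 0.00866) and Anapc16 (-1.09, adjusted p = 0.0207) fell, and all of these last 3 lost the call when the coding length trend was removed (-0.52, -0.53 and -0.48). With that trend removed the counts of the lists were 9 raised and 0 lowered, where 4.75% and 1.8% of 11773 protein-coding genes were. In low polysome over monosome 4 were higher and 4 lower, where 2.31% and 2.39% of all genes were: Anapc7 (0.85) and Cdkn1b (0.84) led the higher, and Rbx1 (-0.94), Anapc11 (-0.71), Anapc13 (-0.70) and Ccny (-0.69) were the lower. With the coding length trend removed Anapc11 and Anapc13 were at 0.02 and 0.07 and Rbx1 at -0.30, with no call. Of 15 alternatives, 8 ended the call of Anapc7, 7 those of Ccny and of Anapc11, 5 that of Anapc13, 4 that of Rbx1 and 3 that of Cdkn1b. In WT high polysome over monosome 22 were higher and 29 lower (28.9% and 32.2% of all genes), with Mnat1 of the CDK-activating complex highest (2.30) and E2f1 (-2.80), Ccnl2 (-2.45), Ccnl1 (-2.22), Anapc13 (-2.03) and Anapc15 (-1.86) lowest.

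**Figure D4:**
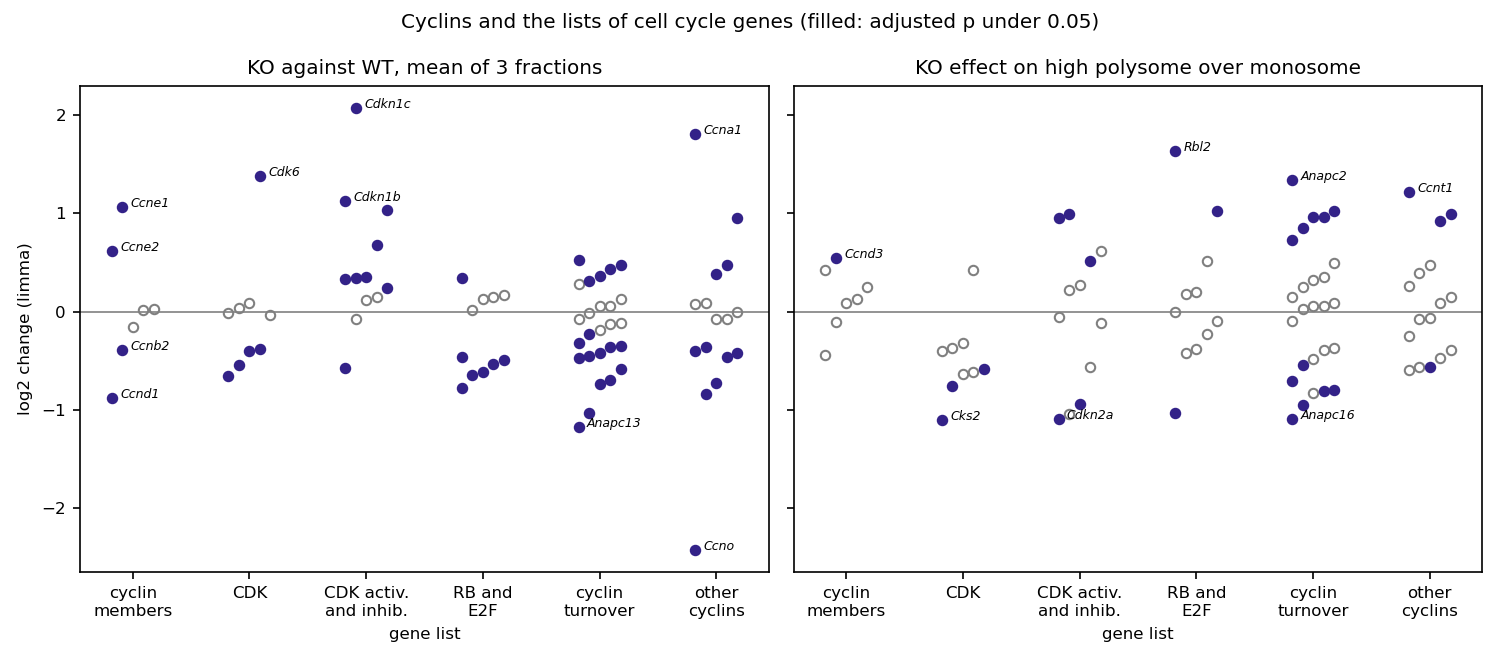
Log2 change (limma, y axis) of the 7 tested cyclins and of 74 genes in 5 lists, for KO against WT over the mean of 3 fractions (left) and for the KO effect on high polysome over monosome (right), with filled points for an adjusted p under 0.05 and names for the called cyclins and for the 6 largest called changes of the lists. Ccna1 and Ccno are drawn although they passed the filter through 1 genotype alone, and their filled points are not read as tests. On the left Ccne1 and Ccnd1 lie on opposite sides of 0, and on the right Ccnd3 is the one cyclin called.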

How the data were processed

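Reads were made by the authors with the QuantSeq 3′ FWD kit from 18 fractions, trimmed with cutadapt 1.14 and aligned uniquely to mm10 with STAR 2.5.3a. The deposited values are whole read counts for each gene, from featureCounts 1.5.3 run by strand on the Gencode M14 basic annotation, per the file headers. No molecular identifiers are mentioned, so PCR copies are in the counts. Reads shared between near-identical copies are dropped, and pseudogenes of Ccnb1, Ccnb2 and Ccnd3 are annotated, so these genes may be undercounted. Symbols, coordinates and 3′ UTRs came from Gencode M21 on the same assembly (51274 identifiers matched, 193 did not).

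Genes with at least 3 CPM in at least 3 libraries were kept (12705, with 99.6% of counts), scaled by TMM in edgeR 4.0.16 and given to limma 3.58.1 with voom weights (R 4.3.3), with a mean for each of 6 groups in one fit of the 18 libraries. Adjusted p-values are Benjamini-Hochberg values over all 12705 genes, two-sided, and 0.05 was the threshold. For a single value, an exact permutation test of 3 against 3 cannot give a p below 0.1, so none was used. TMM makes every change relative to the other genes. Library totals are given in the report. The labels do not say that gradients were separate cultures, so p-values measure the spread between gradients, which may be technical. Spread between libraries of a group exceeded sampling noise in every pair. Scripts were tested on simulated data.

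Fractions of one gradient share a lysate, per the methods of the study. The number in the labels was taken as the gradient, and the gradient was also fitted as a block. Deviations of fractions of one gradient correlated between -0.166 and 0.442, with 7 of 18 pairs over 0.1. WT and KO gradients share only a number. Other alternatives were DESeq2 1.42.0 as test or scaling, edgeR, library size alone, no filter, each gradient left out, equal depth, the compared groups alone, and the coding length trend removed. All cyclins and Ddx6 were named, with the 6 largest called changes of 5 cell cycle lists per comparison. Members and lists were chosen with earlier results of these data known.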

Additional observations from a re-analysis of the deposited data

Results flagged for a closer look

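The KO effect on the high polysome over monosome ratio of Ccnd3 was 0.55, which differed between the genotypes by the interaction term of limma (adjusted p = 0.032). The KO effect on the low polysome over monosome ratio of Ccnb1 was 0.65 by the same kind of test (adjusted p = 0.0431). Of 15 alternatives, the Ccnd3 call held under 8 and the Ccnb1 call under 5. Both were lost in each fit without a WT gradient. Groups of 3 gradients were not examined for single distant samples.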

How the results depend on the processing

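Across 693 recomputed values of single cyclins, 640 kept their direction and their side of the threshold, 26 lost and 11 gained a call, and 16 changed sign. The called changes of Ccnd1 and Ccne1 in level and the 6 calls in WT high polysome over monosome held under every alternative run for them. The count of cyclins called for KO effect on high polysome over monosome (1) was 0 with library size alone and with no filter, and 0 to 1 without a single gradient. The count for low polysome over monosome (1) was 0 with library size alone, no filter, equal depth and the compared groups alone, 2 with the DESeq2 test and 2 with the gradient as a block, and 0 to 2 without a single gradient. The count for KO against WT in the low polysome (4) was 2 at equal depth. The block changed no other call. The causes were not tested, except that leaving out a gradient leaves fewer samples. Library size alone moved the median KO effect of all genes on high polysome over monosome from 0.022 to -0.102.

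Signs changed where no call was made. For the mean of 3 fractions, Ccna2 was at -0.02 with DESeq2 size factors, -0.01 with the DESeq2 test, -0.00367 at equal depth, and -0.08 to 0.14 without a single gradient. Ccnb1 was at -0.01 and -0.00318 with DESeq2 size factors and the DESeq2 test and -0.07 to 0.09 without a single gradient, and in the high polysome at 0.01 at equal depth and -0.17 to 0.06 without a single gradient. Ccnd3 in the low polysome was at -0.20 to 0.03 without a single gradient. For high polysome over monosome, Ccne1 was at -0.03 with library size alone and -0.01 with no filter, and Ccne2 at -0.10 at equal depth. Of 42 named values of the 5 lists, 14 lost the call under at least 1 alternative and 2 changed sign (Anapc11 to 0.02 and Anapc13 to 0.07 in low polysome over monosome with the coding length trend removed). The 42 include values of Ccna1 and Ccno, which passed the filter through 1 genotype alone, so their calls are not counted as stable results. The 14 include the monosome and high polysome values of Ccna1, lost at equal depth. Depth limits Ccnd2, with 1 to 38 counts a library, and Ccne2.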

Other observations

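Across the 18 libraries, the genes whose log2 CPM followed each cyclin most closely among 9030 genes were named as a description. All points share libraries, fractions and genotypes, so these values carry no p. Ccne1 was closest to Pld3 (Pearson r = 0.988) and Rpn1 (0.987), which encodes an endoplasmic reticulum glycosylation subunit. Ccnb2 was closest to Hat1, a histone acetyltransferase (0.986), and Mtap (0.975), and Ccna2 to the proteasome subunit gene Psma1 (0.982) and Arcn1 (0.974). Ccnd1 was closest to Smtnl2 (0.974) and Trib3 (0.965), and Ccnb1 to Tpm3 (0.959) and Exosc9 (0.95). The lowest values were those of Ccne2, with Zcwpw1 (0.922) and Zfp1 (0.909), and of Ccnd3, with Kyat1 (0.855) and Gmeb1 (0.851). No other cyclin was among the 2 closest genes of any cyclin.

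The pentamer ATTTA, searched on the mRNA strand, occurred 5 times in the 3′ UTR of Ccnd1, 4 times in that of Ccnb1 and 6 times in that of Ccne2. It occurred 2 times in Ccnd2, once in Ccna2 and Ccnd3, and not in Ccne1 or Ccnb2. Since the searched 3′ UTRs differ in length, the density per kb was 3.89 in Ccnb1, 3.79 in Ccne2 and 1.87 in Ccnd1. It was 1.09 in Ccnd3, 0.73 in Ccna2 and 0.387 in Ccnd2. At least 1 was found in 61.8% of 20654 3′ UTRs.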
